A study of Mus musculus with 6 samples.

Results

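The 10 genes described here control how many mitochondria a cell makes. They were taken by exact gene name from a table of 54532 genes: Ppargc1a, Ppargc1b and Perm1 among the coactivators, the nuclear receptors Esrra and Esrrg, the transcription factors Nrf1 and Gabpa, and Tfam, Tfb2m and Polg, which act on mitochondrial DNA. All 10 passed the low-count filter, which left 14867 genes to be tested. RNA-seq libraries came from mouse muscle, 3 from controls and 3 from muscle-specific Igf2 knockouts, all on a C57BL/6 background. In both groups the 2 copies of Igf2, the gene of insulin-like growth factor 2, were floxed, with loxP sites flanking exon 2 (Igf2f/f). The knockouts (Mck-Cre+; Igf2f/f, called Igf2 cKO) carried in addition a Cre recombinase driven by the muscle creatine kinase promoter, which works in striated muscle fibres and leaves Igf2 of the other cells of the tissue in place. Controls were Mck-Cre- littermates, so the groups differ in Cre as well as in Igf2. Libraries are named by replicate number as controls 1 to 3 and knockouts 1 to 3. The labels name neither the muscle nor age, sex or any pooling.

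Mitochondria are built from proteins of the nuclear genome and a few of their own. The coactivator PGC-1alpha (Ppargc1a) is induced by exercise, cold and fasting. It binds the estrogen-related receptors and, through NRF1 and GABP, turns on genes of respiration, among them Tfam, whose protein packages mitochondrial DNA and helps to start its transcription. Oxidative muscle fibres, the slow ones in particular, are known for high PGC-1alpha and many mitochondria.

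Total counts lay between 16184371 and 17905203 per library. The targeted gene, Igf2, had 39 to 60 counts in the control libraries and 33 to 42 in the Igf2 cKO libraries (log2 fold change, Igf2 cKO over control and called log2 change here, -0.31 ± 0.25, SE, adjusted p = 0.751). The deposited count covers the whole gene rather than the floxed exon, so it does not check the genotype. Muscle fibre markers (Acta1, Ckm, Ttn, Des, Mylpf and Tnnt3) were detected in every library, at a summed 65608 to 85708 CPM (counts scaled to the size of the library). Knockout 2 stood apart from the other knockouts in its slow fibre markers, and no knockout lay within the range of the controls. The 8 of them (such as Myh7, Myl2 and Tnnt1) summed to 1323, 1165 and 1247 CPM in controls 1 to 3, and to 428, 2276 and 429 CPM in knockouts 1 to 3. Knockout 2 was above every control in this sum, while the other Igf2 cKO libraries were below every control. The log2 changes of Ppargc1a, Perm1, Esrrg and Pdk4 and the share of counts from mitochondrial DNA are therefore also given without knockout 2. What remains then is a comparison of the controls with the knockouts whose slow markers summed below every control. Likeness of pattern, levels and single mitochondrial DNA genes are given over all libraries alone. In bulk tissue, fewer cells of a type and less RNA per cell cannot be told apart.

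Promoter sequence is shown first. Stretches are printed only for genes with a match to a motif, so a match in each follows from that choice. RefSeq windows (GRCm38.p6, 250 bases before to 50 after a transcript's start) were found for 9 of the 10 genes. They were searched on both strands for TNAAGGTCA (estrogen-related receptors), a palindromic NRF1 site, CCGGAAGT (GABPA), TGACGTCA and the shorter TGACGT it contains (cAMP response), and CACGTG (E-box). Of these, CCGGAAGT was found at Tfam and Polg and in 3.89% of all 32851 windows, and TGACGT was found at Ppargc1a and in 7.51% of all windows, a share that includes the windows with TGACGTCA. The others matched none of the 9 genes. AAGGTCA, the core contained in TNAAGGTCA, and a MEF2-type site (CTA and TAG with 4 bases between) were added after the sequences had been read. The former was found at Perm1 and in 4.72% of all windows, and the latter at Esrrg and in 3.69%. Capitals mark the match, 5′ to 3′ on the gene's strand, and a match to TGACGT or AAGGTCA on the other strand reads as ACGTCA or TGACCTT. The first 2 stretches end where the annotated gene begins, and the other 3 are the 30 bases around a match.
Ppargc1a, chr5:51567727-51567975, minus strand: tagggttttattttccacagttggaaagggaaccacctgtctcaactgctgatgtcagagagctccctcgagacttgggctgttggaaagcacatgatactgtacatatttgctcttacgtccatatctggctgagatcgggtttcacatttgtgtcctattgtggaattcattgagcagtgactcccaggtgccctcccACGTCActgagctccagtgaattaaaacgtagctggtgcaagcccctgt
Perm1, chr4:156215677-156215867, plus strand: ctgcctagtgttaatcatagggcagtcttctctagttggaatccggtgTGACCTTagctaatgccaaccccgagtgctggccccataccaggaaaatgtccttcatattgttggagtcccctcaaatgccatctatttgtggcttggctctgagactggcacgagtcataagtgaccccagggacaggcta
Esrrg, chr1:187608974-187609003, plus strand: taaaactttgCTATTTATAGtctacgcccg
Tfam, chr10:71238073-71238102, minus strand: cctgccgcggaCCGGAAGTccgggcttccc
Polg, chr7:79466293-79466322, minus strand: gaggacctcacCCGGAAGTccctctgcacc

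No member was called different between the genotypes. By the quasi-likelihood test of edgeR with Benjamini-Hochberg adjustment over all tested genes, 0 of 10 had an adjusted p under 0.05, where 0.249% of all genes did. DESeq2 and limma-voom also called 0 of 10, against 1.47% and 0.229% of all genes with an adjusted p. At an unadjusted p under 0.05 by edgeR there was 1 member, Tfb2m, against 9.93% of all genes. It was also the 1 member whose control and Igf2 cKO libraries did not overlap in CPM, as in 15.5% of all genes. The members' median log2 change was 0.02, with 6 above and 4 below 0, and the median of all tested genes was 0.0038. These 2 counts give the list no result of its own beside the background.

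**Figure D1:**
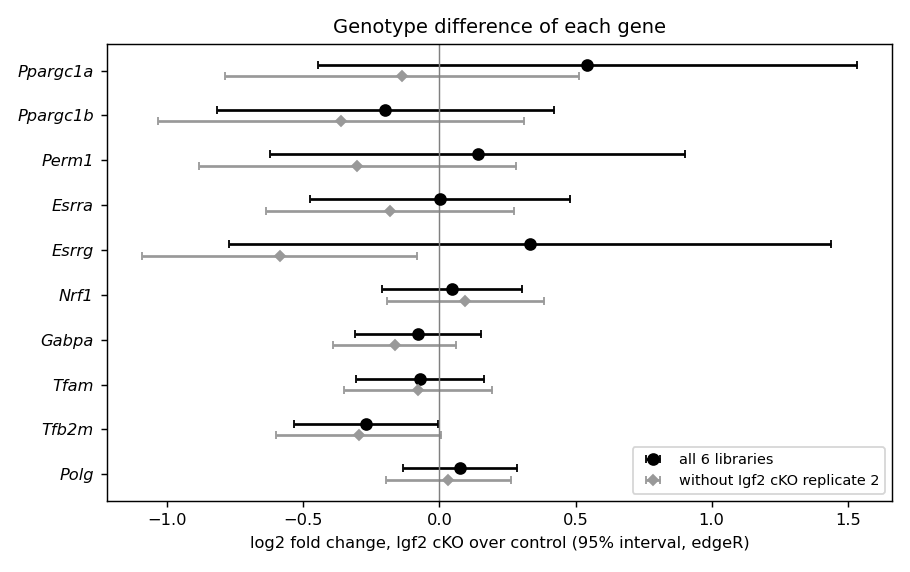
Log2 fold change of each gene, Igf2 cKO over control, with its 95% interval from edgeR, over all 6 libraries (black circles) and without knockout 2 (grey diamonds). Intervals are wide for Ppargc1a (-0.45 to 1.53) and Esrrg (-0.77 to 1.44) and narrow for Polg (-0.13 to 0.29).

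Among the coactivators, Ppargc1a (ENSMUSG00000029167, chromosome 5, 51454250 to 51567726, minus strand, GRCm38) differed most between libraries of Igf2 cKO muscle, while Ppargc1b had the slightly larger spread among controls (SD of log2 CPM 0.56 against 0.53). It stood at 19.9, 32.5 and 40.8 CPM in controls 1 to 3 and at 22.5, 79.4 and 33.9 CPM in knockouts 1 to 3. Knockout 2 was above every control, and the other knockouts lay within the range of the controls. The means were 31.1 ± 10.5 and 45.3 ± 30.1 CPM (SD, n = 3 each), a log2 change of 0.54 ± 0.43 (SE, adjusted p = 0.749). Without knockout 2 the value turned to -0.14 (adjusted p = 0.905). The 95% interval over all libraries ran from 0.734-fold to 2.89-fold, so a doubling of Ppargc1a lies inside what these data allow.

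Ppargc1b (ENSMUSG00000033871, chromosome 18, 61298136 to 61400431, minus strand) encodes PGC-1beta, the close relative of PGC-1alpha that is less tied to exercise. Its values were 7.79, 13.1 and 16.7 CPM in controls 1 to 3, and 8.70, 13.2 and 10.8 CPM in knockouts 1 to 3. All 3 knockouts fell inside the range of the controls. The log2 change was -0.20 ± 0.27 (SE, adjusted p = 0.873), and the sign changed without control 3 (0.063, adjusted p = 0.967).

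Perm1 (ENSMUSG00000078486, chromosome 4, 156215868 to 156221307, plus strand), a muscle-enriched factor induced by PGC-1 coactivators and estrogen-related receptors, had the same lowest and highest library as Ppargc1a. Controls 1 to 3 had 128, 199 and 258 CPM, and knockouts 1 to 3 had 145, 328 and 171 CPM. The lowest was control 1 and the highest knockout 2, so the groups overlapped. The means were 195 ± 65.3 and 215 ± 99.1 CPM (SD, n = 3 each) and the log2 change was 0.14 ± 0.33 (SE, adjusted p = 0.934). It was -0.30 without knockout 2 (adjusted p = 0.725) and -0.089 without control 1 (adjusted p = 0.974).

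The estrogen-related receptors are orphan nuclear receptors that bind the promoters of respiratory and fatty acid oxidation genes and recruit the PGC-1 proteins. ERRalpha is encoded by Esrra (ENSMUSG00000024955, chromosome 19, 6910977 to 6921813, minus strand). Esrra was at 91.4, 113 and 155 CPM in controls 1 to 3. In knockouts 1 to 3 it was at 102, 149 and 109 CPM, all within the range of the controls. Its log2 change was 0.0026 ± 0.21 (SE, adjusted p = 0.998, 95% interval 0.720-fold to 1.39-fold), and its sign turned under 5 of the alternatives. A stretch of 73 exonic bases of Esrra is shared with Trmt112 on the other strand, and without a stated strand setting those reads cannot be told apart.

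Esrrg (ENSMUSG00000026610, chromosome 1, 187608791 to 188214885, plus strand), which encodes ERRgamma, a receptor enriched in oxidative fibres, had the widest range of the 10 genes. Controls 1 to 3 had 25.6, 29.5 and 35.9 CPM and knockouts 1 to 3 had 15.3, 74.3 and 25.1 CPM. The highest and the lowest library were thus both Igf2 cKO, 4.86-fold apart, with all controls between them. The log2 change was 0.33 ± 0.48 (SE, adjusted p = 0.885). Without knockout 2 it was -0.59 ± 0.22 (SE), with an unadjusted p of 0.028 and an adjusted p of 0.401 by edgeR. The direction of Esrrg between the genotypes therefore rested on 1 library.

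**Figure D2:**
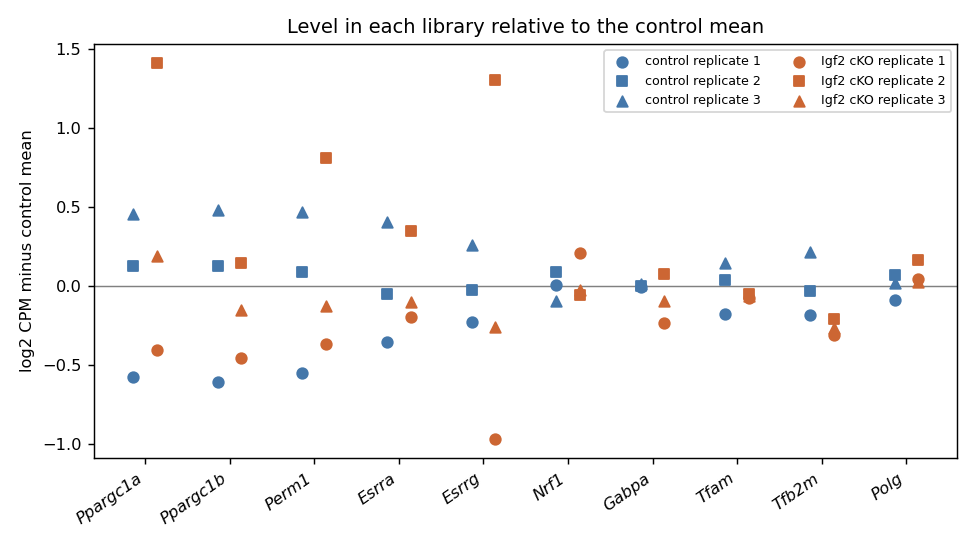
Log2 CPM of each gene in each library after subtraction of the control mean, with controls in blue, Igf2 cKO in orange and a symbol for each replicate number. Knockout 2 lies 1.41 above the control mean for Ppargc1a, 1.30 for Esrrg and 0.81 for Perm1, while Nrf1, Gabpa, Tfam, Tfb2m and Polg lie between -0.31 and 0.22 in every library.

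Nrf1 and Gabpa, the DNA-binding factors that carry the PGC-1 signal to genes of the respiratory chain, were nearly level across the libraries. Nrf1 (ENSMUSG00000058440, chromosome 6, 30047988 to 30153458, plus strand) was at 19.1, 20.2 and 17.8 CPM in controls 1 to 3 and at 22.0, 18.3 and 18.7 CPM in knockouts 1 to 3. Its log2 change was 0.045 ± 0.11 (SE, adjusted p = 0.937), and -0.043 without knockout 1. For Gabpa (ENSMUSG00000008976, chromosome 16, 84834925 to 84863779, plus strand), the DNA-binding subunit of GABP, the 3 controls had 53.0, 53.3 and 53.7 CPM and the 3 Igf2 cKO libraries 45.2, 56.3 and 50.0 CPM. Igf2 cKO libraries lay on both sides of these closely grouped controls, and the log2 change was -0.079 ± 0.10 (SE, adjusted p = 0.866). The intervals allow 0.864-fold to 1.23-fold for Nrf1 and 0.806-fold to 1.11-fold for Gabpa. Gabpa shares 397 exonic bases with Atp5j on the opposite strand, a subunit gene of ATP synthase with 3647 to 4650 counts per library, so part of either count may belong to the other.

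Of the factors that act on mitochondrial DNA, Tfb2m came closest to a difference. Tfb2m (ENSMUSG00000026492, chromosome 1, 179528055 to 179546267, minus strand), which opens the promoter for the mitochondrial RNA polymerase, was at 34.3, 38.2 and 45.3 CPM in controls 1 to 3 and at 31.4, 33.7 and 32.5 CPM in knockouts 1 to 3. All 3 Igf2 cKO libraries were below all controls, by 0.602 CPM at the nearest pair, control 1 and knockout 2. Counting error alone amounts to up to 4.29% of a Tfb2m value, which is more than that gap. The means were 39.3 ± 5.60 and 32.5 ± 1.13 CPM (SD, n = 3 each). The log2 change of -0.27 ± 0.12 (SE, 95% interval 0.690-fold to 0.995-fold) had an unadjusted p of 0.0455 by edgeR and failed the correction (adjusted p = 0.491). The unadjusted p was 0.068 by DESeq2 and 0.054 by limma-voom. Over the alternatives it stayed below 0, from -0.36 to -0.15, with adjusted p between 0.445 and 0.721. The value nearest 0 was that without control 3, the library with the most Tfb2m.

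No genotype difference was detected for Tfam or Polg, and both varied little between libraries. Tfam (ENSMUSG00000003923, chromosome 10, 71225464 to 71238280, minus strand) was at 41.5, 48.2 and 52.1 CPM in controls 1 to 3 and at 44.6, 45.4 and 44.9 CPM in knockouts 1 to 3. The 3 knockouts were within 0.849 CPM of each other, inside the controls' range, and the log2 change was -0.071 ± 0.10 (SE, adjusted p = 0.885), and 0.0050 without control 3. Counting error alone amounts to up to 3.69% of a Tfam value, more than the knockouts' coefficient of variation of 0.947%. Their closeness is therefore no measure of how constant Tfam is. Polg (ENSMUSG00000039176, chromosome 7, 79446231 to 79466362, minus strand), the catalytic subunit of the polymerase that copies mitochondrial DNA, had 46.3, 51.9 and 50.1 CPM in controls 1 to 3. Its knockouts 1 to 3 had 50.9, 55.4 and 50.2 CPM, a log2 change of 0.077 ± 0.092 (SE, adjusted p = 0.850). With 95% intervals of 0.808-fold to 1.12-fold for Tfam and 0.913-fold to 1.22-fold for Polg, these were among the most tightly bounded of the 10. Polg shares 921 exonic bases with Fanci on the opposite strand, which had at most 8 counts in a library.

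The 10 genes differed widely in their spread between libraries. The range of log2 CPM over the 6 libraries was 2.27 for Esrrg, 1.99 for Ppargc1a, 1.36 for Perm1, 1.09 for Ppargc1b and 0.76 for Esrra. It was 0.53 for Tfb2m and between 0.26 and 0.33 for Nrf1, Gabpa, Tfam and Polg. Over all tested genes the median range was 0.55, and 2.37% of genes had a wider range than Esrrg and 3.89% a wider one than Ppargc1a, while 88.2% had a wider one than Polg. Every member of the PGC-1, Perm1 and estrogen-related receptor group was therefore above the median gene and every other member below it. Counting error was small beside the wide ranges. With 368 to 1283 counts, it amounts to at most 5.21% of a Ppargc1a value, against a coefficient of variation of 33.8% among controls and 66.5% among Igf2 cKO libraries. For Polg the corresponding values were 3.61%, 5.75% and 5.38%.

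Promoter composition was compared as a description, in the 250 bases before the start of the outermost RefSeq transcript. Upstream GC content was 48.0% for Ppargc1a, 50.8% for Esrrg and 51.2% for Perm1, the genes with the widest ranges among the 9 with a window. For Polg, Gabpa, Esrra, Tfb2m, Tfam and Nrf1 it was 58.0%, 59.6%, 68.4%, 69.2%, 72.0% and 76.0%, and the median of all windows was 52.4%. The ratio of observed to expected CpG was 0.35, 0.59 and 0.25 for Ppargc1a, Esrrg and Perm1 and between 0.61 and 1.0 for the other 6. Esrrg has 3 further windows, with 41.6% to 63.6% GC, and Nrf1 has 1 further window, with 43.2%, so the order holds for the outermost starts alone. Which start was used in this muscle was not measured.

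Levels can be compared between genes per length, with the FPKM of the authors' table (fragments per length of gene and depth of library). Perm1 was the most abundant at a mean of 52.2 FPKM over the 6 libraries, followed by Esrra at 46.9 FPKM, and their ranges overlapped. A gap followed, since the lowest Esrra library had 35.7 FPKM and the highest library of the next gene, Tfb2m, had 16.1. Tfb2m (mean 12.7 FPKM), Tfam (10.3) and Gabpa (9.08) came next, each overlapping its neighbour, and then Ppargc1a (5.76), Esrrg (5.49) and Polg (4.70), which also overlapped. Ppargc1b (2.92) lay below Polg with no overlap and overlapped Nrf1, the lowest at 1.87 FPKM. In knockout 2, Ppargc1a reached 12.0 FPKM and Esrrg 11.9 FPKM, levels above those of Tfam (10.2) in the same library, whereas in the other 5 libraries both were below Tfam.

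**Figure D3:**
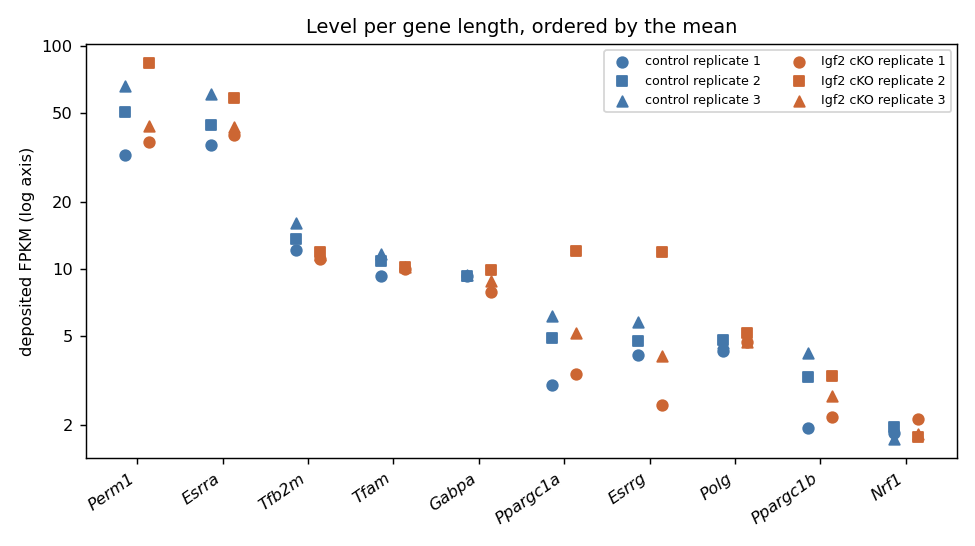
Deposited FPKM of each gene in each library on a log axis, with genes ordered by the mean over all libraries, controls in blue and Igf2 cKO in orange. Perm1 and Esrra stand at 32.5 FPKM or more in all libraries, and Ppargc1a and Esrrg reach the level of Tfam in knockout 2.

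RNA of mitochondrial DNA, whose transcription Tfam and Tfb2m help the mitochondrial RNA polymerase to start, varied more between libraries than the RNA of these factors did. The 13 protein genes of mitochondrial DNA took 6.19%, 7.18% and 8.29% of the counts in controls 1 to 3, and 4.72%, 10.2% and 7.36% in knockouts 1 to 3. The means were 7.22% ± 1.05 and 7.41% ± 2.72 (SD, n = 3 each), a difference of 0.191 percentage points (two-sided exact permutation p = 0.9, where 3 against 3 cannot go below 0.1). The difference was -1.18 points without knockout 2 and -0.323 points without control 1. Exact Clopper-Pearson 95% intervals of the single shares reached at most 0.0147 points to either side and cover counting error alone. None of the 13 genes was called by edgeR, and 0 had an unadjusted p under 0.05. Their median log2 change was 0.064, and the 3 with the smallest p were mt-Nd4l (0.84), mt-Atp8 (0.96) and mt-Co2 (0.53), with adjusted p of 0.752, 0.752 and 0.766. Knockout 2 had the largest share and knockout 1 the smallest, and among controls the share was highest in control 3, as for every member but Nrf1 and Polg. Tfam in the libraries with the largest and the smallest share was at 45.4 and 44.6 CPM. Across controls 1 to 3 it rose with the share, at 41.5, 48.2 and 52.1 CPM.

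**Figure D4:**
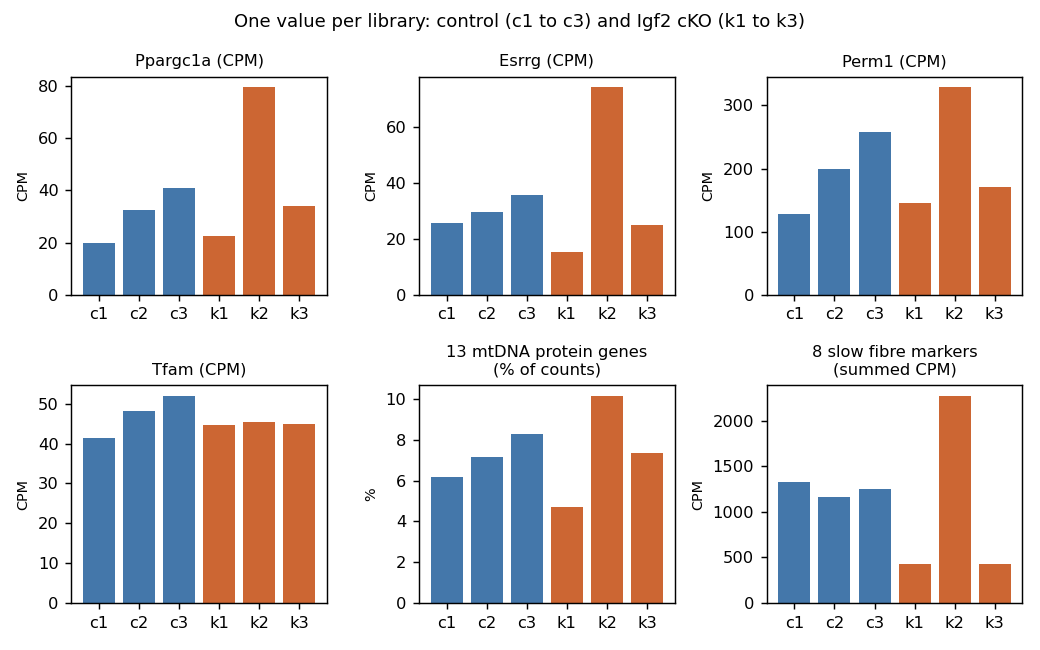
Values of each library for Ppargc1a, Esrrg, Perm1 and Tfam (CPM), for the share of counts from the 13 protein genes of mitochondrial DNA, and for the summed CPM of 8 slow fibre markers. Knockout 2 (k2) is the highest library in every panel except that of Tfam.

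Slow fibre markers did not order the libraries as Ppargc1a did. The sum of slow markers was 428 CPM in knockout 1 and 429 CPM in knockout 3, below all controls, and for Esrrg these were also the lowest libraries, at 15.3 and 25.1 CPM. Ppargc1a in knockout 3 was at 33.9 CPM, above controls 1 and 2, whose slow markers summed to 1323 and 1165 CPM. The 6 fast fibre markers, of which Myh4 made up the largest part, summed to 58710 to 74060 CPM in controls and to 41357 CPM in knockout 2, the lowest sum. They did not move together there. The myosins Myh1 (4892 CPM) and Myh2 (2921 CPM) were highest in knockout 2, while Myh4 (17313 CPM), Actn3, Pvalb and Tnni2 were lowest. Myh2 was at 1117, 1626 and 1456 CPM in controls 1 to 3 and at 922 and 1202 CPM in knockouts 1 and 3. Control 1 and knockout 1 were the lowest libraries for Myh2 and for Ppargc1a, and the order of the middle libraries differed. The part of fibre content in the values of Ppargc1a, Esrrg and Perm1 was not tested. Of 6 brown adipocyte markers, Ucp1 had no count in any library, and Cox7a1, which muscle also expresses, made up most of their sum of 83.4 to 147 CPM. White adipocyte markers summed to 2952 to 3809 CPM in controls and to 2346 to 4852 CPM in Igf2 cKO muscle, with the lowest sum in knockout 2. Car3, which muscle also expresses, made up most of that sum and was the 1 marker of 8 that was lowest in knockout 2. Adipoq ran from 6.28 CPM in control 3 to 78.0 CPM in knockout 3 and was at 7.73 CPM in knockout 2. Smooth muscle markers were higher in all Igf2 cKO libraries (508 to 600 CPM) than in controls (377 to 431 CPM), and erythroid markers lower (313 to 358 against 449 to 617 CPM). Sums of fibroblast, macrophage, endothelial and Schwann cell markers overlapped between the groups. Control 3 had the lowest fibroblast and macrophage sums (3348 and 237 CPM), against up to 7769 and 465 CPM in the other controls. The lowest endothelial sum was in knockout 1 (860 CPM) and the lowest Schwann cell sum in control 2 (140 CPM). The part of these other cell types was not tested.

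Other genes of the pathway gave no call either. In 5 further lists of regulators and targets, 0 of 121 tested genes were called by edgeR, against 0.249% of all genes, and 10 of them (8.26%) had an unadjusted p under 0.05, against 9.93% of all genes. Limma-voom called 0 of them and DESeq2 called 1, Rcan1 (adjusted p = 0.0283), while edgeR with no low-count filter called Rcan1 (adjusted p = 0.0112) and Ucp3 (adjusted p = 0.0107). Over all genes with an adjusted p, limma-voom called 0.229%, DESeq2 1.47% and edgeR with no low-count filter 1.07%. The median log2 change of the 121 genes was 0.0040. In the list of coactivators and corepressors, 10 of 20 tested genes were above 0 (median 0.0075). The corepressor Nrip1 (RIP140), which opposes oxidative genes in muscle, had the smallest p, at a log2 change of 0.38 (adjusted p = 0.331). Its 3 Igf2 cKO libraries (50.1 to 67.2 CPM) were above its controls (43.3 to 48.0 CPM). Pprc1, the third member of the PGC-1 family, was at -0.18 (adjusted p = 0.594) and the steroid receptor coactivator Ncoa3 at 0.27 (adjusted p = 0.608).

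Among nuclear receptors and nuclear partners, 8 of 20 tested genes were above 0, with a median of -0.036. The insulin-restrained factor Foxo1 (0.28, adjusted p = 0.384), the growth regulator Myc (-0.44, adjusted p = 0.45) and Gabpb2 (-0.25, adjusted p = 0.456) came closest. Gabpb2 encodes a partner subunit of Gabpa and lay at 37.0 to 39.6 CPM in controls against 28.6 to 34.2 CPM in Igf2 cKO muscle, without overlap. Upstream kinases and phosphatases had a median of 0.041 over 20 genes, 12 of them above 0. Rcan1, which calcineurin induces and which inhibits it in turn, had 140, 210 and 136 CPM in controls 1 to 3. In knockouts 1 to 3 it had 205, 337 and 298 CPM, a log2 change of 0.79 ± 0.22 (SE, adjusted p = 0.276 by edgeR). The groups touched, since control 2 was above knockout 1. Camkk2, a kinase that activates AMPK, was at 0.33 (adjusted p = 0.433), and the AMPK subunit Prkag2 at 0.35 (adjusted p = 0.466).

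The list of other mitochondrial DNA replication and transcription genes had a median of -0.0014 over 31 tested genes, with 15 above 0. Mterf1a (1.00, adjusted p = 0.345) and Mterf1b (0.99, adjusted p = 0.547), which encode transcription termination factors, had means of at most 1.6 CPM and are close copies that can share reads. The nuclease gene Exog was at 0.69 (adjusted p = 0.447). Known targets of PGC-1 and the estrogen-related receptors had a median of 0.02 over 30 genes, 17 of them above 0. Ucp3, an uncoupling protein of muscle mitochondria, was at 155, 199 and 224 CPM in controls 1 to 3 and at 53.3, 139 and 111 CPM in knockouts 1 to 3. All 3 Igf2 cKO libraries were below all controls (log2 change -0.93 ± 0.31, SE, adjusted p = 0.352). Pdk4, the kinase that closes pyruvate dehydrogenase, had 1030, 1031 and 1327 CPM in controls 1 to 3 and 116, 1161 and 274 CPM in knockouts 1 to 3. Knockout 2 was within the range of the controls, and knockouts 1 and 3 were below every control. The log2 change of Pdk4 was -1.13 ± 0.68 (SE, adjusted p = 0.637 by edgeR). When knockout 2 was left out it was -2.53 and called by edgeR (adjusted p = 0.0214), in a fit that called 68 of 15194 tested genes. The knockouts left in that fit are those whose slow fibre markers, at 428 and 429 CPM, summed below every control. Mfn2, a mitochondrial fusion gene, was at -0.18 (adjusted p = 0.697).

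Likeness of pattern was measured as the root mean square difference of gene-centred log2 CPM over the 6 libraries, where 0 is an identical pattern. Within the 10 genes, Ppargc1a was nearest to Perm1 (0.236) and Esrrg (0.29) and farthest from Nrf1 (0.711). Ppargc1b was nearest to Esrra (0.168), and Tfam to Polg (0.103) and Tfb2m (0.108). Flat genes are near each other by construction of this measure. Over all tested genes, the 5 nearest to Ppargc1a were Gm28437 (0.136), the frizzled receptor gene Fzd9 (0.137), Gm13339 (0.156), Nlrc3 (0.168) and mt-Co2 (0.169), a subunit of cytochrome c oxidase encoded in mitochondrial DNA. Gm28437 and Gm13339 are annotated as unprocessed pseudogenes. Near-identical copies elsewhere can share reads with a pseudogene, so expression of these and of Fabp3-ps1 is uncertain. The 5 nearest to Esrrg were Myoz2 (0.133), a sarcomere protein of slow fibres, Fndc5 (0.139), the irisin precursor and a known PGC-1alpha target, Esrrb (0.151), the remaining estrogen-related receptor, Atp1b1 (0.152), a sodium pump subunit, and the pseudogene Fabp3-ps1 (0.174). Esrrb was at 5.30, 7.44 and 10.7 CPM in controls 1 to 3 and at 3.63, 18.4 and 5.97 CPM in knockouts 1 to 3, again with Igf2 cKO libraries at both ends.

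The authors' deposited table compares single libraries, each Igf2 cKO with the control of the same number. In the authors' deposited table Ppargc1a had log2 changes of 0.18, 1.29 and -0.26 in the pairs numbered 1, 2 and 3, and Esrrg had -0.74, 1.33 and -0.51. The lowest adjusted p of any member in the authors' deposited table was 0.198, for Esrrg in pair 2, followed by 0.237 for Ppargc1a there, and all others were 1. Tfb2m was the 1 member below 0 in each pair of the authors' deposited table, at -0.12, -0.18 and -0.48. Both sets of values come from the same 6 libraries.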

How the data were processed

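Raw counts per gene were deposited by the authors for 6 libraries, together with FPKM, per the file headers. Aligner, counting tool, strand setting and genome build were not given in the sources used here. All 10 members have the same coordinates in the table as in GENCODE M21 (GRCm38). The authors' deposited log2 fold changes, with a p-value each, compare single libraries, by a method that is likewise not given. A further 6 per-sample columns match no title by name and were left out.

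Counts were tested with the quasi-likelihood test of edgeR 4.0.16 (R 4.3.3), with genotype alone in the model, TMM scaling, low counts removed by filterByExpr, and p-values adjusted over 14867 genes by Benjamini-Hochberg. A call is an adjusted p under 0.05. CPM uses TMM library sizes, and log2 CPM a prior count of 2. The code was tested on simulated data. P-values set the difference between the genotypes against the spread between these libraries. Alternatives included DESeq2 1.42.0, limma-voom (limma 3.58.1), other size factors and filters, a replicate term and each library left out.

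Members and lists were chosen with earlier results of these data known. Of each list the text names the called genes, or otherwise the 3 with the smallest p, and Esrrb among those most like Esrrg. Other genes are named as examples of markers or for overlap with a member.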

Additional observations from a re-analysis of the deposited data

How the results depend on the processing

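No member was called under any of the 14 alternative fits. The count over all genes, 37, became 282 with no low-count filter, 214 with DESeq2, 62 at an adjusted p under 0.1 and 235 by the series' own cut-off (p under 0.05 before adjustment, log2 change beyond 1 in either direction). With 1 library left out it ran from 8 to 68, at 8, 15 and 13 without controls 1, 2 and 3, and at 68 and 17 without knockouts 2 and 3. The count of wider pathway genes called was 2 with no filter (Rcan1 and Ucp3), 1 with DESeq2 (Rcan1), and 0 to 1 with a library left out (Pdk4 without knockout 2). The cause was not tested. Directions of uncalled members turned as follows. Esrra was at -0.013 with upper quartile factors and at -0.0016 with no filter. With 1 library left out, Esrra ran from -0.18 to 0.23, Esrrg from -0.59 to 0.71, Ppargc1a from -0.14 to 0.87, Perm1 from -0.30 to 0.40, Ppargc1b from -0.45 to 0.063, Nrf1 from -0.043 to 0.095 and Tfam from -0.16 to 0.0050. The difference in the mitochondrial DNA share ran from -1.18 to 1.54 percentage points. Gabpa, Tfb2m and Polg kept their direction under all 14. The replicate numbers shared by the groups were not shown to pair the libraries (correlations of deviations of same-numbered libraries 0.163, 0.058 and -0.043 across genes). With the replicate number as a block 35 genes and 0 members were called, the members' median was 0.027, and Esrrg was at 0.036. With 3 libraries a group, a difference of any size within a printed interval lies inside what these data allow. Counting error was small beside the spread of Ppargc1a, but not beside that of every member. It amounts to at most 3.51% of a Gabpa value, against a coefficient of variation of 0.655% among controls and 11.0% among Igf2 cKO libraries.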
